A study of Mus musculus with 8 samples.

Results

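Titin (Ttn), nebulin (Neb), nebulette (Nebl) and the Xin actin-binding repeat genes Xirp1 and Xirp2 encode long scaffold proteins of the sarcomere, and they were followed here as 5 listed genes in RNA-seq and in m6A peak lists of C2C12 cells. C2C12 is an established mouse myoblast line that fuses into myotubes when serum is lowered. The GM libraries came from cells at 50% confluence in high glucose medium with 10% fetal bovine serum. The 3d DM libraries came from cells that had passed 90% confluence and then spent 3 days in high glucose medium with 2% horse serum. All dishes were coated with collagen, and the labels name no transgene or gene edit. Each state had 2 input RNA-seq libraries and 2 matching m6A immunoprecipitated (IP) libraries, named GM 1, GM 2, 3d DM 1 and 3d DM 2. The labels do not say that replicates were separate cultures, so p-values may cover only the spread between libraries. In the RNA-seq test that spread is drawn mostly from all genes, not from each gene's own 2 libraries per state. The genes were found by Entrez identifier in the RNA-seq table, which holds 27179 genes, and by symbol in the peak lists, which hold 9153 genes with a peak in any list. All 5 were in the table, 4 passed the filter on low values, and the same 4 had a peak in at least 1 list.

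Titin spans from the Z-disc to the M-band within the sarcomere and acts as a molecular spring and ruler. Nebulin runs along the thin filament and helps to set its length, and nebulette is its shorter relative, best known from heart. Xirp1 (Xin) and Xirp2 bind actin filaments and sit at sites of attachment and remodelling in striated muscle. N6-methyladenosine (m6A) is written on mRNA mainly in the DRACH context and is known to be dense near stop codons and in long internal exons. DRACH stands for A, G or T, then A or G, then AC, then A, C or T. MeRIP-seq enriches RNA fragments with an m6A antibody and calls peaks of IP over input.

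The genes differ widely in length and exon structure, and not all of them are giants. The longest protein-coding transcript of Ttn in the annotation measured 106824 nt in 347 exons, on the minus strand of chromosome 2 (chr2:76703980-76982455, mm10). The Neb transcript measured 22489 nt in 157 exons (chr2:52136647-52338798, minus strand), and Xirp2 measured 11979 nt in 9 exons (chr2:67446002-67526614, plus strand). Nebl measured 8079 nt in 28 exons (chr2:17344054-17460932, minus strand), and Xirp1 measured 5839 nt in 3 exons (chr9:120013755-120023598, minus strand). Exons of at least 400 nt, called long exons here, held 39.4% of the Ttn transcript, which has 21 of them. The longest Ttn exon, number 309, holds 17106 nt and lies in the part of titin that forms the A-band. Neb is built differently: its median exon is 107 nt, and its only long exon is the last one, of 785 nt. Long exons held 97.2% of Xirp1 and 92.7% of Xirp2. Antisense genes share exonic bases with Ttn (Gm13938) and Xirp2 (Gm13601). The library kit marks strand, but the strand setting of the counting is not given in the sources used here, so their reads cannot be told apart from those of Ttn and Xirp2.

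The stretches below are coding sequence under m6A peaks, read from GRCm38 on the transcript strand, with each DRACH match in capitals. Ttn-a and Ttn-b were chosen as the longest coding stretches that all 4 lists covered, and Ttn-c as a stretch that crosses an exon junction. Ttn-a lies in exon 28 (chr2:76944399-76944635) and Ttn-b in exon 341 (chr2:76711349-76711531). Ttn-c joins the end of exon 13 (chr2:76964475-76964497) to exon 14 (chr2:76955031-76955088). Ttn-d is the longest stretch within exon 309 that both 3d DM lists and no GM list covered (chr2:76744121-76744304). All are on the minus strand.
Ttn-a: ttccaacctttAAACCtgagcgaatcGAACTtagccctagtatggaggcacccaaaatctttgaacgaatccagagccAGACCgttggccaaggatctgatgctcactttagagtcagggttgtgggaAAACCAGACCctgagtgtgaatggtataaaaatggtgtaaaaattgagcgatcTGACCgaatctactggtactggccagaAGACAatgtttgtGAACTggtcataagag
Ttn-b: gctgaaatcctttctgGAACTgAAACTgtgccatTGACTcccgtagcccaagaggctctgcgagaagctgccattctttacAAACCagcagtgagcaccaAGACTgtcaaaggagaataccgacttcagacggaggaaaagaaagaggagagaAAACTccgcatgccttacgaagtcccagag
Ttn-c: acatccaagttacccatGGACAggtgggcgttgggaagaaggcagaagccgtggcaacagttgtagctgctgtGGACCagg
Ttn-d: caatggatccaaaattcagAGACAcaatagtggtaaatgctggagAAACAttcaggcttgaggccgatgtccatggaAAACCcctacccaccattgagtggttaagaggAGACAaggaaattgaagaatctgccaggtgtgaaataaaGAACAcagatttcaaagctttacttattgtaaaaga
The DRACH matches numbered 8, 6, 2 and 5 in these 4 stretches, and none held GGACT, a frequent form of the motif.

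For Neb, the stretches show the only bases under a GM peak and an example from differentiated cells. Neb-a was covered in GM 1 and both 3d DM lists and joins exon 137 (chr2:52167560-52167573) to exon 138 (chr2:52165225-52165277). Neb-b was covered in GM 2 and both 3d DM lists and joins exon 135 (chr2:52169843-52169916) to exon 136 (chr2:52169127-52169163). Neb-c was covered in both 3d DM lists and in no GM list, and joins exon 64 (chr2:52251707-52251724) to the 312-nt exon 65 (chr2:52249245-52249514). All are on the minus strand.
Neb-a: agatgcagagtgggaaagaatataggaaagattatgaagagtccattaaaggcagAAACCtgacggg
Neb-b: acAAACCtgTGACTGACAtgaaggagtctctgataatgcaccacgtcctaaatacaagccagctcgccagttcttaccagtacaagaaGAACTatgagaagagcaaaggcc
Neb-c: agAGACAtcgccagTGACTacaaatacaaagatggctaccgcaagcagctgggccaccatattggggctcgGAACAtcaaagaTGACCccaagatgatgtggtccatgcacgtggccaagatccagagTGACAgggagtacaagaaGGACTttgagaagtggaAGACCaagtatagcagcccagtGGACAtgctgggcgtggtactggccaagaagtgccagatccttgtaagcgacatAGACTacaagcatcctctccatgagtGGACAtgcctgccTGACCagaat
Neb-a held 1 DRACH match, Neb-b held 4, and Neb-c held 11, of which 1 was GGACT.

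Xirp1-a is the longest coding stretch of Xirp1 that all 4 lists covered, in its exon 2 (chr9:120017260-120017469, minus strand). Xirp2-a was covered in 3d DM 1 only and Xirp2-b in GM 2 only, both in exon 7 (chr2:67514688-67514902 and chr2:67513790-67513883, plus strand).
Xirp1-a: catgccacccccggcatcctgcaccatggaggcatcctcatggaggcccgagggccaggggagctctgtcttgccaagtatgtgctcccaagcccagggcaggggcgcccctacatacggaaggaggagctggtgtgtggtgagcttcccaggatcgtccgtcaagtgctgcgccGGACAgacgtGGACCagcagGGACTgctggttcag
Xirp2-a: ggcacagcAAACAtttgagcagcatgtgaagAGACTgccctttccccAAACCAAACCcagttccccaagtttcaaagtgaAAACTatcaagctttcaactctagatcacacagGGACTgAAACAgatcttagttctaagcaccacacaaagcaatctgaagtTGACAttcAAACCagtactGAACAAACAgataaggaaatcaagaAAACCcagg
Xirp2-b: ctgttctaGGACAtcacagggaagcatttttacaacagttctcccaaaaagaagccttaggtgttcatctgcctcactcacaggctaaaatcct
Xirp1-a held 3 DRACH matches, all starting with GGAC and 1 of them GGACT, whereas Xirp2-a held 12 DRACH matches and Xirp2-b held 1. DRACH is common: cut into windows of 200 nt, 97.5% of windows over all 9062 annotated genes with a peak held at least 1 match. GGACT was in 19.1% of those windows, in 13.5% of Ttn, 22.3% of Neb, 31.0% of Xirp1 and 22.0% of Xirp2 windows.

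Of the 5 genes, Ttn, Neb, Xirp1 and Xirp2 rose in 3d DM and Nebl was at or near 0. The RNA-seq values are normalized signals per gene with near-equal column totals, so their depth is unknown. Ttn had values of 4063 in GM 1, 621 in GM 2, 17216 in 3d DM 1 and 14641 in 3d DM 2. Both differentiated libraries lay above both GM libraries, and the GM pair itself was 6.54-fold apart. On the log2(value + 1) scale the difference was 3.32 (SE 0.41), with a limma adjusted p of 2.16e-14 over the 11406 genes tested. It was 4.67 without GM replicate 1 and 1.97 without GM replicate 2.

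Neb changed most of the 5. GM 1 gave 508 and GM 2 gave 102, while 3d DM 1 gave 8022 and 3d DM 2 gave 7411. The log2 difference was 5.07 (SE 0.42, limma adjusted p = 1.17e-30). Like Ttn, it was higher in GM 1 than in GM 2, by 4.96-fold. Among genes that rose, 115 had a larger log2 difference than Neb and 287 had a larger one than Ttn.

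Xirp1 was steady within GM, at 256 and 237. Its 3d DM values of 1758 and 2610 lay well above, with a log2 difference of 3.11 (SE 0.43, limma adjusted p = 4.43e-11). Xirp2 was lower throughout: GM 1 stood at 76.0, GM 2 at 24.1, 3d DM 1 at 105 and 3d DM 2 at 140. Its groups did not overlap, and its log2 difference of 1.47 (SE 0.54) just passed the threshold at a limma adjusted p of 0.0388. Nebl was listed at 0, 6.01, 2.40 and 1.35 in GM 1, GM 2, 3d DM 1 and 3d DM 2, so its groups overlapped and it was not tested.

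**Figure D1:**
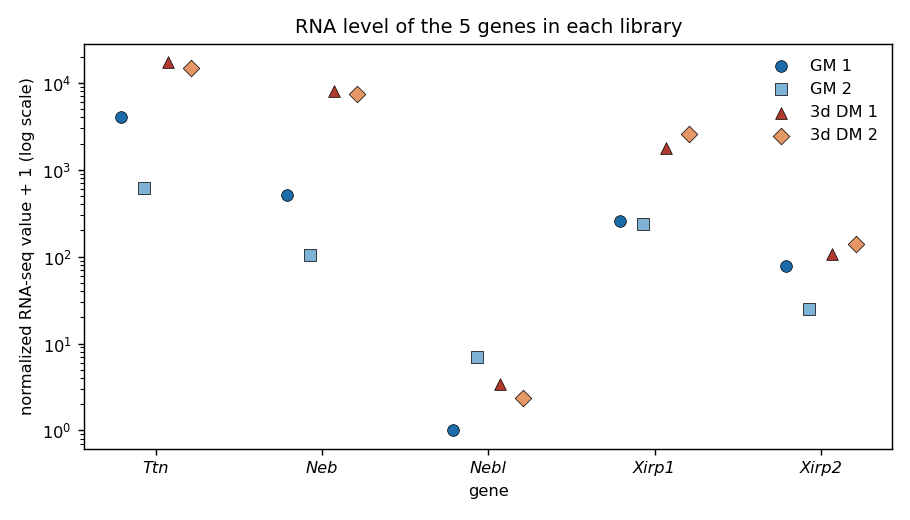
Normalized RNA-seq value plus 1 of each gene in each library, on a log axis, with 1 point per library. The 2 3d DM points lie above both GM points for Ttn, Neb, Xirp1 and Xirp2, GM 1 lies above GM 2 for Ttn and Neb, and Nebl does not pass 6.01 in any library.

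The count of 4 genes higher and 0 lower is read against a background of 7.01% of tested genes higher and 9.96% lower in 3d DM. The median log2 difference of the 4 tested genes was 3.22, beside -0.22 over all tested genes. Rescaling by median-of-ratios factors moved that median to 0.00 and the share of calls that were higher from 41.3% to 51.6%. The standard errors follow a trend over all genes more than each gene's own 2 libraries, and with no filter on low values none of the 4 genes passed (limma adjusted p from 0.162 for Xirp1 to 0.684 for Xirp2). Leaving out 3d DM replicate 1 kept the call of Xirp1 alone (limma adjusted p = 0.206 for Ttn, 0.0633 for Neb and 0.359 for Xirp2), and leaving out 3d DM replicate 2 kept those of Neb and Xirp1 (0.122 for Ttn and 0.345 for Xirp2). Xirp2 was the least firm: without GM replicate 2 its log2 difference was 0.67 (limma adjusted p = 0.847), without GM replicate 1 it was 2.28, and after median-of-ratios rescaling it missed the threshold (0.0550).

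Levels per kb of transcript put the genes on 1 scale. In 3d DM, Neb stood at 357 and 330 per kb and Xirp1 at 301 and 447, so these neighbours overlapped. Ttn followed at 161 and 137 per kb, Xirp2 at 8.77 and 11.7, and Nebl at 0.30 and 0.17. In GM, Xirp1 led at 43.9 and 40.6 per kb. Ttn at 38.0 and 5.82 overlapped with Neb at 22.6 and 4.55, and Neb overlapped with Xirp2 at 6.35 and 2.01.

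The gap between the GM libraries was shared by markers of differentiated muscle. All 6 myotube markers rose in 3d DM and all 6 were higher in GM 1 than in GM 2, with summed levels of 15716 in GM 1, 6566 in GM 2, 69053 in 3d DM 1 and 98700 in 3d DM 2. Myogenin (Myog), a transcription factor that drives differentiation, was at 1008 in GM 1 and 221 in GM 2, and the fusion protein gene Mymk was at 698 and 101. All 5 proliferation markers fell in 3d DM and all 5 were lower in GM 1 than in GM 2. Of the 4 myoblast markers, Myf5 fell and the others did not pass. Differentiated cells in the GM 1 culture and more RNA per cell cannot be told apart in these bulk libraries, and their part in the levels of Ttn and Neb was not tested. Of the 6 cardiac markers 1 passed the filter, the myosin gene Myh6, at 4.12 and 8.02 in GM 1 and GM 2, then 373 and 569 in 3d DM 1 and 2. The others were not tested. Nppb was lower in 3d DM (24.0 and 44.1, then 9.23 and 15.7), as was Nkx2-5 (8.35 and 10.0, then 5.26 and 8.17). Tnni3 overlapped between states, Nppa did not pass 3.41 and Myl7 was at 0. The 3 adipocyte markers were at 0 in every library, and the endothelial markers summed to between 0 and 1.5. The leukocyte markers summed to 26.4 and 16.1 in GM and to 16.9 and 9.94 in 3d DM.

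The genes whose pattern was nearest to each of the 4 tested genes were found by Euclidean distance over the 4 libraries, after log2(value + 1) and centring. Nearest to Ttn were Mapt (distance 0.20), Gm17455 (0.22) and Fam107a (0.27), beside a median distance of 4.01 over 11405 genes. In GM 2 each of these neighbours of Ttn stood below about 25.1 units, the level used in the filter on low values. Gm17455 and Fam107a were below it in GM 1 as well. Their likeness to Ttn in GM, with the gap between GM 1 and GM 2, therefore rests on low values. Nearest to Neb were Fbxo40 (0.18), the myosin light chain gene Myl1 (0.21) and Jakmip1 (0.35). Fbxo40 and Jakmip1 stood at the same values near 0 in GM, 3.22 and 0.00298, so for them the likeness in GM rests on very low values. Xirp1 lay nearest to the collagen gene Col1a1 (0.24), Synpo2 (0.26) and Fbln5 (0.26), and Xirp2 to Gpr146 (0.06), Adgrg2 (0.10) and Eid2b (0.11). In GM, Adgrg2 stood at 21.2 and 6.04 and Eid2b at 24.4 and 8.04, which are low values as well.

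Genes whose products bind titin mostly rose with it. Of 21 listed titin partners 20 were tested, 16 rose, 0 fell and 4 did not pass, with a median log2 difference of 4.09. The largest differences were in Actn2, the Z-disc crosslinker alpha-actinin 2 (log2 6.83), and in the myosin-binding protein genes Mybpc1 (6.19) and Mybpc2 (6.10). In both GM libraries Actn2, Mybpc1 and Mybpc2 stood below about 25.1 units, the level used in the filter on low values. The size of their log2 differences therefore rests on low GM values. The M-band genes Myom1, Myom2 and Myom3 had log2 differences of 5.64, 4.58 and 5.35. Tcap, which caps titin at the Z-disc, rose by 5.60 on the log2 scale, from low values of 4.19 in GM 1 and 4.01 in GM 2. Ankrd1, Fhl1, Fhl2 and Cryab did not pass, at log2 -0.12, 0.19, -0.69 and 0.84.

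Thin filament genes that go with nebulin behaved likewise. Of 15 listed, 13 were tested, 9 rose, 1 fell and 3 did not pass (median log2 difference 4.67). The largest rises were in the actin-binding gene Cap2 (6.17), the filament nucleator gene Lmod2 (5.81) and cardiac alpha-actin, Actc1 (5.67). Cap2 stood at 39.4 in GM 1 but at 1.03 in GM 2. The skeletal alpha-actin gene Acta1 rose by 5.56, but near-identical actin sequences make the split of reads between Acta1 and Actc1 uncertain. Lasp1, which shares nebulin-type repeats with Neb and Nebl, went the opposite way. It stood at 3096, 3718, 789 and 1224 in GM 1, GM 2, 3d DM 1 and 3d DM 2, a log2 difference of -1.79 (SE 0.42, limma adjusted p = 0.000257).

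Partners of the Xin proteins moved less. All 12 were tested, 4 rose, 0 fell and 8 did not pass, and the median log2 difference was 0.54. Those that rose were Pgm5 (6.83), a component of muscle attachment sites, the villin relative Svil (2.16), the actin regulator Enah (2.11) and filamin C, Flnc (1.59). Pgm5 was low in GM, at 22.3 and 7.04. The adhesion genes Vcl and Ctnnb1 had log2 differences of 0.34 and -0.39. These lists were written with earlier results of the data known, and their counts are a description beside the 7.01% of all tested genes that rose. With the filter in 3 of 4 libraries, the number that the study asked for, 11 titin, 9 thin filament and 3 Xin partners were called higher. Leaving out 3d DM replicate 1 lowered the counts of higher genes to 6 titin, 2 thin filament and 1 Xin partner and lost Lasp1, which was also lost without GM replicate 2. Without 3d DM replicate 2 the counts were 9, 6 and 1, and with no filter on low values they were 0.

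**Figure D2:**
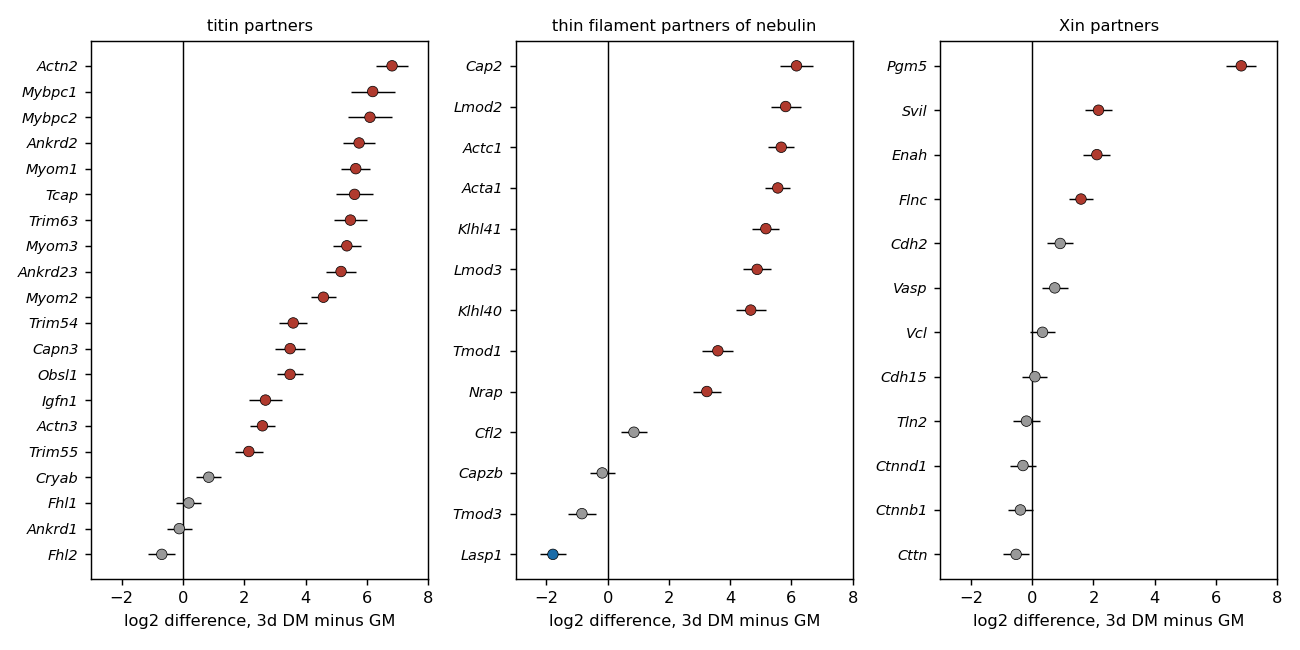
Log2 difference (3d DM minus GM) of the tested genes in 3 partner lists, with bars of 1 standard error from limma and red, blue and grey for higher, lower and not called. The titin list has 16 red points and the thin filament list 9, with Lasp1 the only blue point at -1.79.

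In the m6A lists, the peaks on Ttn and Neb multiplied in 3d DM, those on Xirp1 became longer, Xirp2 held few and Nebl none. Lines of a gene that share an exonic base were merged into distinct peaks. Ttn held 10 distinct peaks in GM 1, 22 in GM 2, 63 in 3d DM 1 and 44 in 3d DM 2. Both 3d DM lists were above both GM lists, by a mean of 37.5 peaks (two-sided exact permutation p = 0.333, the smallest that 2 against 2 allows). Neb held 1 peak in each GM list and 21 and 20 in the 3d DM lists (difference 19.5, exact permutation p = 0.333). Counting only peaks of at least 4-fold enrichment cut the difference to 11 for Ttn (10 and 19 peaks in GM, 27 and 24 in differentiated cells) and to 6 for Neb, and counting only peaks with p at or under 1e-05 cut that of Ttn to 18. Over all genes with a peak, 5.68% had more distinct peaks in both 3d DM lists than in both GM lists.

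Xirp1 went the other way in number but not in extent. GM 1 held 7 and GM 2 held 9 distinct peaks, 3d DM 1 held 4 and 3d DM 2 held 5 (difference -3.5, exact permutation p = 0.333), and 7.25% of genes had fewer peaks in both 3d DM lists. The bases of its transcript under peaks numbered 2174 and 2386 nt in the GM lists but 4794 and 4748 nt after differentiation, that is from 37.2% and 40.9% to 82.1% and 81.3% of its length. Counting only peaks with p at or under 1e-05 turned the direction of the Xirp1 count, to 1 and 4 peaks in GM and 4 in each 3d DM list. Xirp2 held 0 peaks in GM 1, 3 in GM 2, 5 in 3d DM 1 and 0 in 3d DM 2, so its groups overlapped (difference 1, exact permutation p = 1), and none of its peaks had a p at or under 1e-05.

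Covered length told the same order for the long genes. Peaks covered 1.22% and 5.43% of the Ttn transcript in the GM lists, rising to 24.1% and 15.5% in the differentiated lists. On Neb the GM lists covered 0.30% and 0.49%, and the 3d DM lists 55.9% and 41.4%. Covered bases were higher in both 3d DM lists for Ttn, Neb and Xirp1, against 7.64% of all genes. Among genes whose longest transcript reaches 12000 nt, only 2 of the 101 others in 3d DM 1 and 2 of the 85 others in 3d DM 2 had a larger share covered than Neb. For Ttn, 14 and 10 of these long genes had a larger share. In GM 1, 94 of 94 long genes were above Neb and 85 were above Ttn. In GM 2, 85 of 87 were above Neb, while Ttn was in the middle with 45 above it, at 5.43% beside a median of 5.50%.

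RNA level moved with the number of peaks on Ttn and Neb between states, and its part in the peak counts was not tested. Within GM the direction differed: GM 1 had 6.54-fold more Ttn RNA than GM 2 but 10 peaks against 22. Over all genes GM 1 had the longer list, with 14399 distinct peaks against 12398 in GM 2.

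Peaks on Ttn in GM lay mostly at its ends. The transcript was divided into 10 equal segments, counted from the 5′ end. In GM 1, segment 1 held 47.6% of the covered bases and segment 10 held 52.4%, with nothing between. In GM 2 these shares were 24.8% and 43.0%, and 5 inner segments held the rest. In 3d DM the ends stayed densest: peaks covered 46.4% and 31.5% of segment 1, and 67.4% and 60.6% of segment 10. Between them segment 2 was nearly empty, at 0.69% and 0%, and segment 3 was covered by 26.1% and 18.9%. The 3′ UTR was covered by 21.03%, 54.9%, 69.1% and 46.2% in GM 1, GM 2, 3d DM 1 and 3d DM 2, against 1.03%, 4.94%, 23.7% and 15.2% of the coding sequence. GM peaks fell within the 3d DM ones: of the bases under a GM peak on Ttn, 90.4% were under a 3d DM peak, and they made up 18.9% of the 3d DM bases. Between the 3d DM lists, the shared bases were 54.5% of those in 3d DM 1 and 84.8% of those in 3d DM 2.

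**Figure D3:**
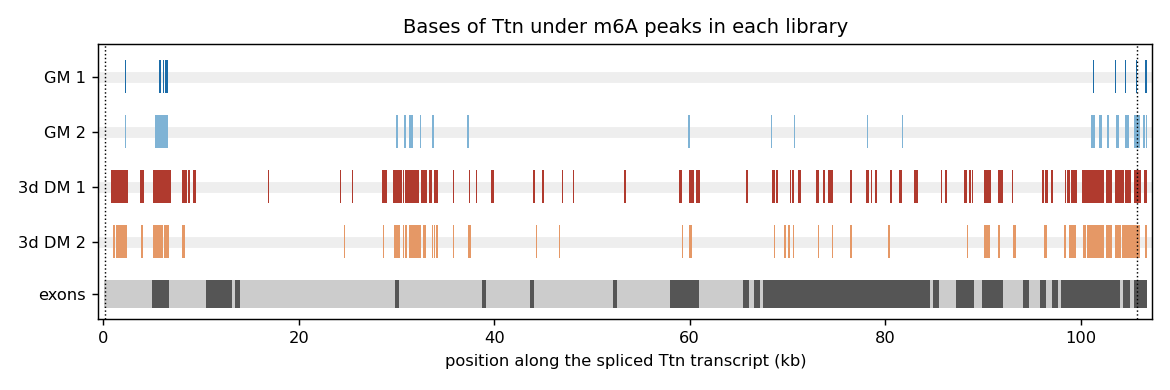
Bases of the longest Ttn transcript under m6A peaks in each library, against position in kb from its 5′ end, with coding ends dotted and exons in the lowest row (dark, at least 400 nt). In GM 1 blocks lie only near the ends, and in both 3d DM lists blocks also lie between.

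Merging lines over the 4 lists gave 67 regions on Ttn. Of these, 5 were in all 4 lists, 14 were in both 3d DM lists and no GM list, 40 were in 1 3d DM list only, 7 were in both 3d DM lists and 1 GM list, and 1 was in GM only. On the longest transcript, the line of lowest p had its midpoint in a long exon for 37 of 64 regions, and 18 of these were in exon 309. The other 3 regions lay in the last exon, of 6520 nt, of a shorter annotated Ttn transcript of 16891 nt, and were found in 3d DM 1 alone. Despite its length exon 309 was covered no more than the rest: 23.6% against 24.2% in 3d DM 1, 7.25% against 17.1% in 3d DM 2, and 0% in GM 1.

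Long exons held 92.8% and 78.9% of the covered Ttn bases in the GM lists, and 61.5% and 60.3% in those of 3d DM, beside 39.4% of the transcript. In other genes with a peak, long exons held 69.5% to 74.7% of the covered bases and 64.1% to 65.3% of the transcript.

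Neb peaks lay over short exons and their junctions. Of its 21 regions, 1 was in all 4 lists, 15 were in both 3d DM lists and no GM list, and 5 were in 1 3d DM list. They had their midpoints in 21 different exons, 13 of them within 50 nt of an exon end, at a median of 31 nt. In 3d DM, 94.9% and 89.8% of its lines crossed an exon junction, against 44.5% and 50.7% for Ttn. The median exon is 107 nt in Neb and 267 nt in Ttn, and Neb lines had a median of 480 and 323 nt in 3d DM. Lines of that length on such exons nearly always cross a junction, and any midpoint lies near an exon end. These values therefore show no preference for junctions. The last exon, with the stop codon and the 3′ UTR, was covered by 0% and 19.2%, while segment 9 of 10 was covered by 90.2% and 83.7% and segment 8 by 79.8% and 80.1%. The region shared by all lists (chr2:52149125-52177533) holds the bases of both GM peaks, which did not overlap each other, and both lay inside the 3d DM peaks. Of the Neb bases under peaks, 67.3% of those in 3d DM 1 and 91.0% of those in 3d DM 2 were shared.

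Xirp1 peaks lay over its coding exon 2 and its 3′ UTR in both states. In 3d DM the coding sequence was covered by 76.3% and 74.9% and the 3′ UTR by 90.8% and 96.1%, against 36.0% and 31.3%, and 41.0% and 58.2%, in GM. Every base under a GM peak on Xirp1 was under a peak in both 3d DM lists. The lines grew from a median of 225 and 208 nt in the GM lists to 630 and 390 nt with differentiation. On Xirp2, none of the 246 nt under peaks in GM 2 was shared with the 1009 nt in 3d DM 1, and 61.8% and 42.5% of them were in its 3′ UTR.

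**Figure D4:**
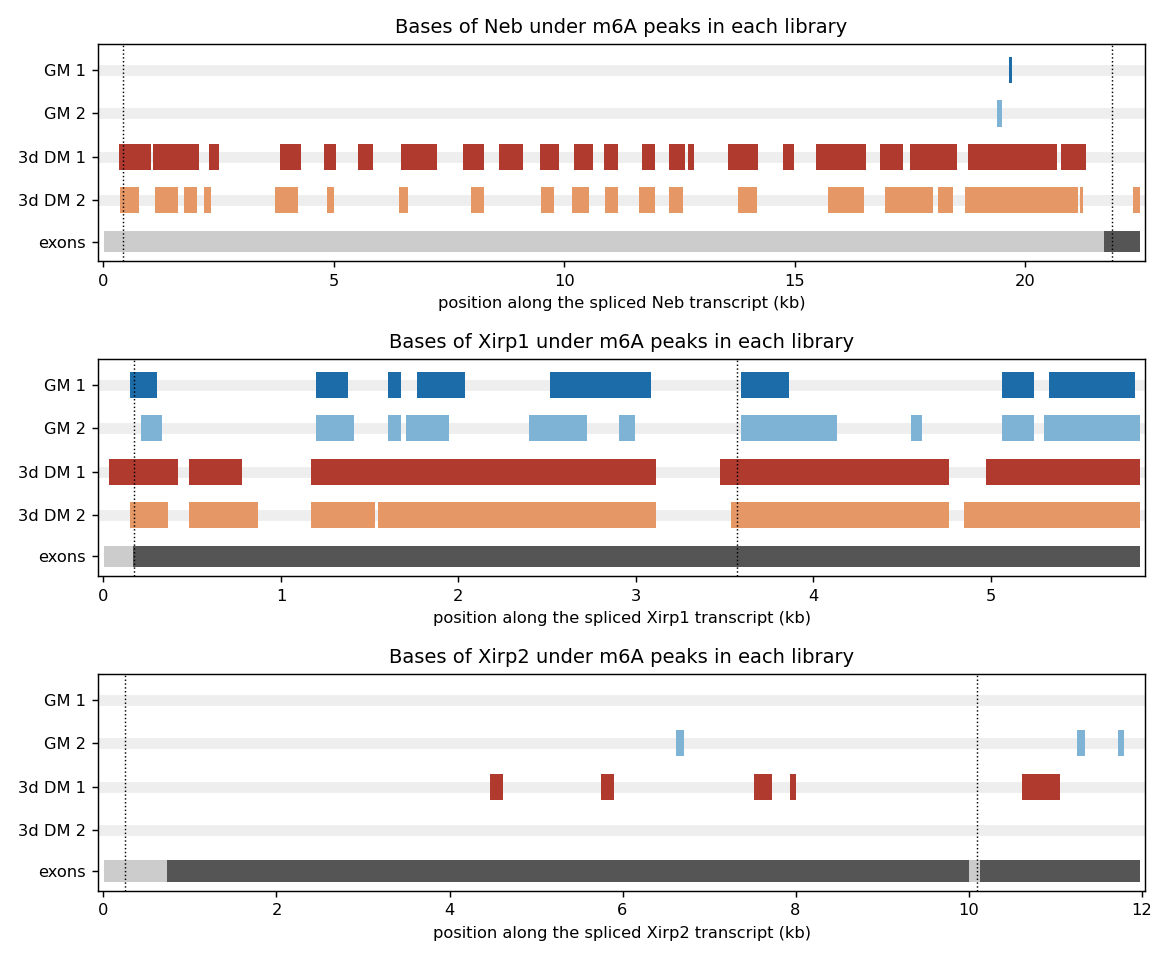
Bases of the longest Neb, Xirp1 and Xirp2 transcripts under m6A peaks in each library, drawn in the same way against position in kb. Neb has 1 short block in each GM list and blocks along most of its length in 3d DM, Xirp1 blocks widen from GM to 3d DM, and Xirp2 blocks in GM 2 and 3d DM 1 do not overlap.

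DRACH density under the 3d DM peaks of Ttn was close to that of the rest of its transcript, at 24.1 and 25.1 per kb against 23.8 and 23.6. On Neb it was 28.4 and 27.7 per kb under peaks against 22.9 and 24.7 elsewhere, and on Xirp1 28.8 and 27.0 against 11.5 and 20.2. Peaks covered 82.1% and 81.3% of Xirp1, so its values elsewhere rest on a short remainder. In other genes DRACH density was 23.5 and 23.4 per kb under peaks and 19.7 and 19.8 elsewhere. GGACT on Ttn stood at 0.93 and 0.91 per kb under 3d DM peaks and 0.67 and 0.70 elsewhere, all below the 1.36 and 1.42 per kb under the peaks of other genes.

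Enrichment itself did not pass a test of difference at the 9 regions that all 4 lists held, 5 on Ttn, 1 on Neb and 3 on Xirp1. Fold enrichment here is IP over input at the line of lowest p. In the Ttn exon 28 region (chr2:76943929-76945939), which holds Ttn-a, it was 16.6 in GM 1, 6.06 in GM 2, 7.26 in 3d DM 1 and 5.22 in 3d DM 2. GM 1 stood apart there. The 3d DM 2 value came from a peak that does not reach Ttn-a, while the 3d DM 2 peak over Ttn-a had a fold of 6.6. In the Ttn region that holds the stop codon (chr2:76704640-76709251) the values were 13.1, 3.62, 3.52 and 3.97. The GM 1 value came from a line in exon 341, upstream of the stop codon, while the other values came from peaks that cover it. GM 1 peaks at the stop codon and just after it had folds of 4.16 and 5.83. The Neb region had values of 9.62 in GM 1, 4.89 in GM 2, 4.74 in 3d DM 1 and 4.34 in 3d DM 2. The Xirp1 region with most of exon 2 (chr9:120013755-120018816) had values of 6.34, 5.33, 5.69 and 5.29, which do not all come from the same place. The GM 1 value came from a peak within exon 2. The GM 2 value came from a peak of 613 nt, of which 540 nt lay in the 3′ UTR. In this region, peaks wholly within exon 2 had folds of 6.34 to 16.6 in GM 1 and 8.35 to 14.9 in GM 2.

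Log2 differences ran from -0.88 (SE 0.56) at the Ttn stop codon region to 0.10 (SE 0.44) at the 5′ end of Xirp1 (chr9:120019565-120023568), and 8 of 9 were below 0. In that Ttn region the GM 1 line lay at another place than the peaks of the other libraries. Each of the 9 had a limma adjusted p of 0.999, with the adjustment made over the 6055 regions present in all 4 lists. Over these regions 0% passed and 211 had an unadjusted p under 0.05, none of them among the 9. GM 1 was the highest library at 7 of the 9. Without GM replicate 1 the median of the 9 differences turned from -0.29 to 0.04, while over all regions it was -0.10 with that library and 0.00 without it. Across all lines on Ttn the median fold was 10.5 in GM 1, 6 in GM 2, 3.70 in 3d DM 1 and 4.18 in 3d DM 2, beside 4.37, 3.91, 3.70 and 4.07 over all lines of the lists. The Ttn medians cover only lines that were called, 37 in GM 1, 101 in GM 2, 281 in 3d DM 1 and 211 in 3d DM 2. They therefore do not compare the same places between states.

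**Figure D5:**
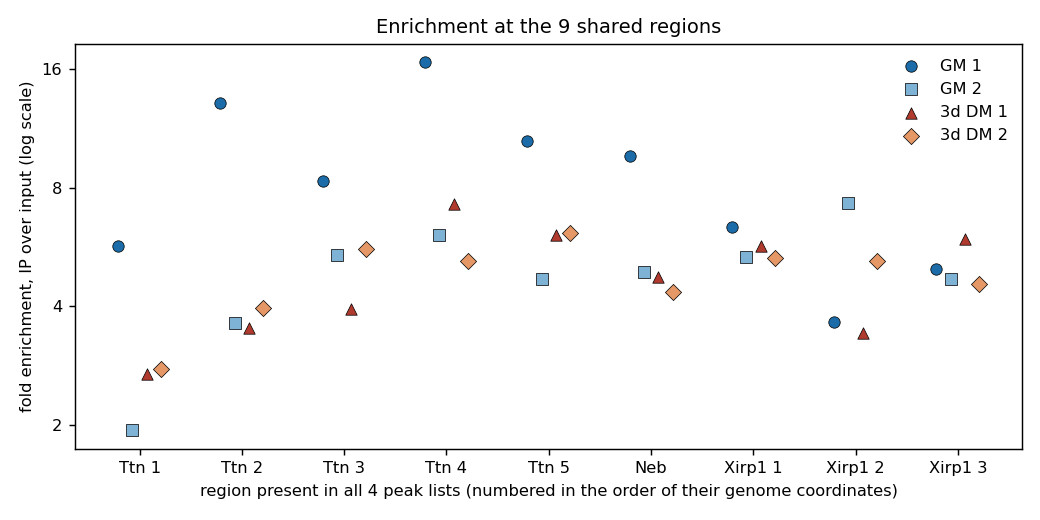
Fold enrichment of IP over input, on a log axis, at the 9 regions that all 4 lists held, with 1 point per library. GM 1 is the highest point at all 5 Ttn regions and at the Neb region, while the Xirp1 points mix.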

How the data were processed

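The authors enriched poly(A) mRNA with an m6A antibody, sequenced IP and input libraries, and aligned reads to mm10 with HISAT2 2.1.0. The deposited RNA-seq table holds a normalized signal per gene (trimmed mean of M values, handled by the authors in edgeR), not counts, with columns summing to 12534657 to 12536233, so depth is unknown and no interval from counting is given. The strand setting of counting is not given in the sources used here. The deposited peak lists give, per line, an exomePeak p-value and the fold enrichment of IP over input, called by the authors in each sample against its own input. The largest p in the lists was between 0.00776 and 0.0107.

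Genes reaching about 25.1 units (2 CPM of the column total) in at least 2 of 4 libraries were log2-transformed after adding 1 and tested in limma (version 3.58.1 under R 4.3.3), with the variance prior following the mean level. P-values were Benjamini-Hochberg adjusted over all genes, threshold 0.05. The study asked for 3 libraries, which was an alternative. Peak lines of a gene sharing at least 1 exonic base were merged, within a list into distinct peaks and over lists into regions. Positions refer to the longest protein-coding transcript of GRCm38. Peak numbers were compared by two-sided exact permutation tests, and log2 fold enrichment at regions in all 4 lists by limma. The fits were tested on simulated data. Alternatives were other filters, pseudocounts, scalings, a fit without trend, a replicate block, stricter peaks, other merging and leaving out each library.

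The members and lists were chosen with earlier results of these data known. Named were the 5 members, in each partner list the 3 genes of largest change and any called the opposite way, and the 3 genes nearest to each tested member. The rule also let any other gene of the partner and marker lists be named, and those were picked after their values were seen. A gene of the titin partner list is not reported here and was left out of its counts. Groups came from the sample labels.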

Additional observations from a re-analysis of the deposited data

How the results depend on the processing

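The direction of the RNA-seq difference held for Ttn, Neb, Xirp1 and Xirp2 under every alternative run. Fitting all 27179 genes with no filter on low values ended every call of the 4 genes, at unchanged log2 differences of 3.32 for Ttn, 5.07 for Neb, 3.11 for Xirp1 and 1.47 for Xirp2, and left 0 members called and 0 partner genes called higher or lower in any list. The cause was not tested. Over all genes, that fit called 80 higher and 74 lower, beside 800 and 1136. The count of higher genes was 1365 after median-of-ratios rescaling and 524 with the filter in 3 of 4 libraries, and the lower genes numbered 705 with the replicate block. Xirp2 was also lost after median-of-ratios rescaling (log2 1.70). The replicate numbers do not pair cultures in the labels (r of the deviations 0.29 between states). With the replicate block Xirp2 stayed at 1.47 and lost its call (limma adjusted p = 0.123), and 3 of 5 members were called.

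Leaving out each library in turn gave log2 differences of 1.97 to 4.67 for Ttn, 3.92 to 6.22 for Neb, 2.83 to 3.40 for Xirp1 and 0.67 to 2.28 for Xirp2, with 1 to 4 members called. Partner genes called higher ranged from 9 to 29 in all, 6 to 16 for titin, 2 to 9 for the thin filament and 1 to 4 for Xin, and those called lower from 0 to 1. The numbers over all genes went down to 101 higher and 44 lower without 3d DM replicate 1, 196 and 480 without 3d DM replicate 2, and 404 and 470 without GM replicate 2. Without GM replicate 1 they were 679 and 573.

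The difference in distinct peaks ranged from 42.5 to 66.5 over the members together, 28 to 47 for Ttn, 19 to 20 for Neb, -4.5 to -2.5 for Xirp1 and -1.5 to 3.5 for Xirp2 when a library was left out. With only peaks of at least 4-fold enrichment it was 13.5 over the members, 11 for Ttn and 6 for Neb, beside 54.5, 37.5 and 19.5. With only peaks of p at or under 1e-05 it was 36 over the members, 18 for Ttn, 1.5 for Xirp1 and 0 for Xirp2, and 1 of the 9 shared regions could still be fitted.

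At the shared regions, leaving out a library moved the log2 difference between -1.06 and 0.49 at the Ttn 3′ UTR end, -1.81 and 0.046 at the Ttn stop codon region, -1.43 and 0.023 at Ttn exon 28, and -0.79 and 0.38 at the Ttn 5′ region. It moved between -0.21 and 0.042 at the Xirp1 region with most of exon 2, -0.79 and 0.21 at the Xirp1 3′ UTR and -0.084 and 0.29 at the Xirp1 5′ end. The median ranged from -0.83 to 0.042. The Ttn 5′ region was at 0.016 with the line of highest fold, and the Xirp1 region with most of exon 2 at 0.027 with the median subtracted. None of the 9 passed the test under any alternative run. With 2 libraries a state and no counts, small differences at these regions were not detectable.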
